A study of Homo sapiens with 15 samples.

Results

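The aryl hydrocarbon receptor gene AHR and 9 genes of xenobiotic, aldehyde, retinoid and vitamin D metabolism (AHRR, TIPARP, CYP1A1, CYP1B1, ALDH3A1, ALDH1A3, CYP24A1, EPHX1 and UGT1A6) were followed in BEAS-2B cells exposed to polyethylene terephthalate nanoplastics (PET-NPLs). The genes are taken by name and are 10 of the 28395 genes in the table of counts. RNA-seq was performed on 15 samples of BEAS-2B, an immortalised line of human bronchial epithelial cells, and raw read counts per gene were deposited. Exposed cells received PET-NPLs at 50 µg/mL for 24 h, 15 weeks or 30 weeks, with the medium renewed during the long exposures, and passage-matched controls were grown without particles for the same time. Each group had 2 samples at 24 h and at 15 weeks, whereas 30 weeks had 3 controls and 4 samples of exposed cells. All cells shared the same serum-containing medium. The labels place the samples of 24 h and 15 weeks in batch 1 and those of 30 weeks in batch 2, and exposed cells were compared only with controls of their own batch. They do not say whether replicates came from separate cultures, so that the p-values measure the spread between these samples, which may be technical.

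The aryl hydrocarbon receptor is a transcription factor held in the cytoplasm by heat shock proteins until it binds a ligand such as a dioxin or a polycyclic aromatic hydrocarbon. It then enters the nucleus, pairs with ARNT and activates genes of drug metabolism, of which CYP1A1 and CYP1B1 are the best known in airway epithelium. AHRR, itself a target, competes with the receptor for ARNT, and TIPARP, another target, modifies the receptor with ADP-ribose, so that both act as brakes on it.

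The pair of AHR and ARNT binds DNA at the letters GCGTG, which were searched on both strands (CACGC on the other) in the 250 bases before the RefSeq start of each gene (GRCh38.p14). A window was at hand for 7 members, and 5 of them (AHRR, CYP1A1, TIPARP, ALDH1A3 and UGT1A6) held the letters, against 11313 of 35116 windows of this length (32.2%). The 35116 are all windows of the promoter set, whereas a member counted only with the window at its RefSeq start, so these shares are of unlike sets. The letters were not found in the windows of AHR and EPHX1, and CYP1B1, ALDH3A1 and CYP24A1 had no window. The windows of the 4 members with a match that had counts are shown because their level could be followed in the libraries. They lie at chr5:321464-321713 on the plus strand (AHRR), chr15:74725529-74725778 on the minus strand (CYP1A1), chr3:156674340-156674589 on the plus strand (TIPARP) and chr15:100879581-100879830 on the plus strand (ALDH1A3). Each is printed 5′ to 3′ along its gene and ends at the base before the start, and capitals mark the matches.
AHRR: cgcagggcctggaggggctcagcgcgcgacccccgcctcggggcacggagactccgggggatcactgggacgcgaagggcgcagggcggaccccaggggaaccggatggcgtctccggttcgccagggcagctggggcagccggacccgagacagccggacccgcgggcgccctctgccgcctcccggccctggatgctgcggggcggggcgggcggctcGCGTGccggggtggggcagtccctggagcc
CYP1A1: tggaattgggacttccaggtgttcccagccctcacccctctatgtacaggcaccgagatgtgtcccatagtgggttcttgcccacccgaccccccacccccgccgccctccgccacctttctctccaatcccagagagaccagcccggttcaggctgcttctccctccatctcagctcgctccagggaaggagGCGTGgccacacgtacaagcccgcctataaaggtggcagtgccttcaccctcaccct
TIPARP: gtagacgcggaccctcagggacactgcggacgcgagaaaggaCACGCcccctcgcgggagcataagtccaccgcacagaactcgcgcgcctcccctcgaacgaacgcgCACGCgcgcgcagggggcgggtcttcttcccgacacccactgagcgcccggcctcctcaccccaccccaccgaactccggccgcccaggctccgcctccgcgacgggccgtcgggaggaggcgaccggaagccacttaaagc
ALDH1A3: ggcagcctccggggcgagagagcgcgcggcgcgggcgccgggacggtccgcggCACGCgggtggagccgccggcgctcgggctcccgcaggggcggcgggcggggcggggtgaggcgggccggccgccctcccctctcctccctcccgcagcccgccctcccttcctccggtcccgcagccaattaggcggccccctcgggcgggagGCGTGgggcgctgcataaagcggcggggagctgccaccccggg
The first base of the match lay 30 bases before the start in AHRR and 57 in CYP1A1. TIPARP held CACGC at 208 and 142 bases, and ALDH1A3 held CACGC at 197 and GCGTG at 43 bases. A match describes the letters only and was not tested as a binding site.

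Levels are given in CPM, the counts of a gene as a share of its library's total after TMM scaling. The totals ran from 23143202 to 31459990 counts (median 28605451), and 1 CPM stood for 23.3 to 33.9 counts. The share of counts on 6 abundant small noncoding RNAs was 9.75 to 12.9% at 24 h and 15 weeks, 22.3 to 31% in the 30-week controls and 17 to 21.5% in cells exposed for 30 weeks. Replicates correlated at 0.976 to 0.991 (Pearson's r of log2 CPM across genes), and exposed replicate 2 at 30 weeks stood apart, with 0.976 to 0.981 against the other exposed samples, which correlated with each other at 0.991. Of the 11 airway epithelial markers, KRT7 led at 24 h with 1220 to 1410 CPM and had 5.29 to 23.4 CPM at 15 weeks. KRT8 had 450 to 646 CPM in the samples of 24 h and 15 weeks, while TP63 and NKX2-1 had 3 counts or fewer in every sample and KRT5 had 2 to 12 counts at 24 h and 0 later. The summed level of these markers was 2120 and 2460 CPM in the 24 h controls and 2380 and 2370 in exposed cells, and 856 and 899 against 826 and 1040 at 15 weeks. At 30 weeks it was 412, 319 and 314 CPM in the controls and 915, 881, 1100 and 949 in exposed cells. KRT8 and KRT18 made up most of the 30-week sums. Of the 7 airway markers tested at 30 weeks, KRT8, KRT18 and KRT19 were higher in exposed cells and none was lower. EPCAM had a log2 fold change of -0.23, CDH1 -0.12, KRT7 0.01 and KRT17 1.45 (edgeR adjusted p = 0.855, 0.837, 0.993 and 0.156). Markers of skeletal muscle also differed at 30 weeks. The 10 markers summed to 198, 175 and 193 CPM in the controls and 49.8, 54.9, 44.8 and 56.5 in exposed cells, against 94.2 to 152 CPM in the samples of 24 h and 15 weeks. TTN made up most of the sum outside the 30-week controls, and without it the sums were 162, 122 and 139 CPM in those controls, 3.51 to 5.07 in exposed cells and 4.76 to 10.8 in the earlier samples. Of the 6 muscle markers tested, MYOD1, MYOG, CHRNA1 and DES were lower in exposed cells and none was higher. TTN (log2 fold change -0.02) and MYH3 (0.15) were not called, and MYH8, TNNT3 and CKM had 3 counts or fewer throughout. MYOD1, the regulator of muscle identity, had 106, 65.8 and 84.4 CPM in the 30-week controls, 0.761, 0.315, 0.313 and 0.458 in exposed cells, and 0.152 to 5.72 in the samples of 24 h and 15 weeks. Whether the 3 control libraries of 30 weeks hold the same kind of cells as the other 12 is therefore in doubt, which bears on every comparison with them. Of the 7 fibroblast markers tested at 30 weeks, COL1A2 was higher in exposed cells and COL1A1 and LUM were lower. VIM was the most abundant of these 9, and they summed to 2480, 1950 and 2010 CPM in the controls and 1830, 1740, 1630 and 1610 in exposed cells. Of the secretory and ciliated cell markers DNAH5 was lower (1 of 2 tested), as was CD68, the only blood cell marker tested, and no hepatocyte marker could be tested. The part of these markers and of the small noncoding RNAs in the differences at 30 weeks was not tested.

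No member was called between exposed and control cells at 24 h or 15 weeks, whereas 4 of the 9 members tested were at 30 weeks. These numbers of calls are not comparable between times, because group sizes and spread differed. The biological coefficient of variation, a measure of spread between replicates, was largest in the 30-week samples (0.201), against 0.108 (24 h) and 0.0782 (15 weeks). The main fit pooled the spread of all times. With each time point fitted alone, 1.96% of all genes were called at 15 weeks (0% in the main fit) and 15.3% at 30 weeks (23.7%). AHR, CYP1B1 and ALDH1A3 were higher and AHRR was lower in cells exposed for 30 weeks than in their controls (edgeR quasi-likelihood test, Benjamini-Hochberg adjusted p under 0.05 over 16740 genes). The doubt about the 30-week controls given above applies here. Of all genes tested, 23.7% were called at this time, 12.0% higher and 11.7% lower. The control and exposed samples did not overlap for 5 of the 9 members, which were the 4 called and TIPARP, against 27.3% of all genes. The median log2 fold change of the 8 members with a fold was 0.52, against 0.01 over all genes. At 24 h edgeR called 0 members, with 0 at an unadjusted p under 0.05, and 0% of all genes. At 15 weeks it called 0 members and 0% of all genes, with 1 member (CYP1B1) at an unadjusted p under 0.05. DESeq2 and limma-voom likewise called 0 members at both times, while fitting the 15-week samples alone called CYP1B1 (log2 fold change -0.59, edgeR adjusted p = 0.0426). UGT1A6 had 0 counts in all 15 samples and was not tested. In bulk RNA, fewer cells that express a gene and less of its RNA per cell cannot be told apart.

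**Figure D1:**
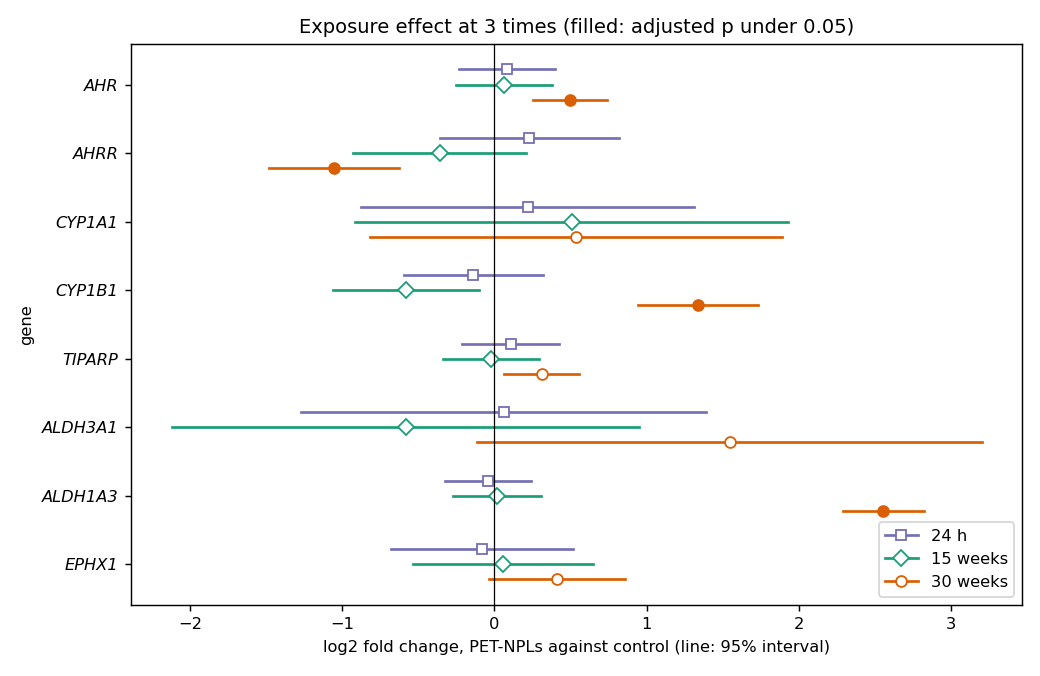
Log2 fold change of exposed against control cells (x axis) for 8 genes at 24 h, 15 weeks and 30 weeks, with lines for 95% intervals and filled symbols for an adjusted p under 0.05. The filled symbols are AHR, AHRR, CYP1B1 and ALDH1A3 at 30 weeks, and the intervals of CYP1A1 and ALDH3A1 are the widest.

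AHR (chr7:17298652-17346147) encodes the receptor itself. At 24 h it was at 135 and 138 CPM in control cells and 146 and 144 in exposed cells. At 15 weeks it was at 82.9 and 76.7 CPM in control cells and 87.1 and 79.5 in exposed cells. At 30 weeks the controls had 54.7, 67.4 and 49.2 CPM and the exposed cells 86.4, 79.8, 76.9 and 79. The exposed samples of 30 weeks therefore lay in the range of the 15-week samples, and all 4 lay above the highest control of their time. The difference was 1.41-fold at 30 weeks, from 57.1 ± 9.34 (SD, n = 3) to 80.5 ± 4.11 CPM (SD, n = 4), with a log2 fold change of 0.50 (SE 0.115, edgeR adjusted p = 0.00504). It was 0.08 (95% interval -0.23 to 0.40) at 24 h and 0.06 (-0.25 to 0.38) at 15 weeks.

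AHRR (chr5:321714-438285), the repressor of the receptor, moved the other way. It was at 14.1 and 13.5 CPM in the 24 h controls and 18.1 and 14.3 in exposed cells. At 15 weeks the controls had 42.9 and 48.8 CPM and the exposed cells 35.5 and 35.9. At 30 weeks it reached 117, 88.5 and 134 CPM in control cells and 67.8, 32.1, 53.7 and 64.5 in exposed cells. Every exposed sample was below every control at both later times, but only the 30-week difference passed the test. AHRR was 2.07-fold lower in exposed cells at 30 weeks (log2 fold change -1.05, SE 0.201, edgeR adjusted p = 0.00123), and at 15 weeks the value was -0.36 (95% interval -0.93 to 0.20). The lowest value belonged to exposed replicate 2. Without that sample the log2 fold change was -0.87 (edgeR adjusted p = 7.45e-05), and AHR (0.50), CYP1B1 (1.30) and ALDH1A3 (2.55) remained called too. AHRR lies within the span of the readthrough gene PDCD6-AHRR, which was not analysed here, and how reads on shared exons were assigned is not stated.

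TIPARP (chr3:156674590-156706770) encodes the ADP-ribosyltransferase that marks the receptor for removal. At 24 h it was at 141 and 159 CPM in control and 158 and 165 in exposed cells, and at 15 weeks at 263 and 261 against 275 and 240. At 30 weeks the controls had 112, 116 and 101 CPM and the exposed cells 132, 158, 121 and 134. The samples of 30 weeks did not overlap, yet the difference did not pass the test over all genes (log2 fold change 0.31, 95% interval 0.06 to 0.55, edgeR adjusted p = 0.0629). It passed with DESeq2 (adjusted p = 0.0372), with limma-voom and surrogate variables (adjusted p = 0.00938), and in edgeR without exposed replicate 3 (adjusted p = 0.0473). The antisense gene TIPARP-AS1 overlaps it and had 2 to 39 counts per sample.

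CYP1B1 (chr2:38067509-38076151) encodes a cytochrome P450 that activates polycyclic hydrocarbons and hydroxylates estradiol. In the 24 h controls it was at 241 and 252 CPM and in exposed cells at 254 and 194. At 15 weeks it was at 18.7 and 16.6 CPM in control cells and 9.99 and 13.6 in exposed cells. At 30 weeks the controls had 4.47, 5.31 and 7.55 CPM and the exposed cells 13, 15.6, 12.8 and 17.1. Exposed cells were thus below the controls in both samples at 15 weeks and above them in all 4 at 30 weeks, without overlap at either time. CYP1B1 was 2.52-fold higher in exposed cells at 30 weeks (log2 fold change 1.33, SE 0.185, edgeR adjusted p = 6.79e-05). At 15 weeks the log2 fold change was -0.58 (SE 0.226, 95% interval -1.06 to -0.10), which did not pass over all genes (unadjusted p = 0.0205, edgeR adjusted p = 0.93).

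CYP1A1 (chr15:74719542-74725528), the P450 most used as a readout of receptor activity, was close to the limit of detection after 24 h. It had 58 and 60 counts in the 24 h controls and 43 and 77 in exposed cells, and 12 and 10 against 5 and 25 at 15 weeks. At 30 weeks it had 10, 2 and 3 counts in control cells and 8, 8, 6 and 10 in exposed cells. The groups overlapped at every time. At this depth a difference at 30 weeks was not detectable, with a log2 fold change of 0.54 and a 95% interval from -0.82 to 1.89 (edgeR adjusted p = 0.594). The value was 0.13 without control replicate 2 of 30 weeks and 1.61 without control replicate 1.

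ALDH1A3 (chr15:100879831-100916626), an aldehyde dehydrogenase that makes retinoic acid from retinal, had the lowest adjusted p of the members. At 24 h it was at 291 and 328 CPM in control cells and 294 and 308 in exposed cells. At 15 weeks the 4 samples lay together, at 31.9 and 32.9 CPM in control and 33.3 and 32.3 in exposed cells. At 30 weeks the controls had 2.88, 2.64 and 2.18 CPM and the exposed cells 15.8, 15, 15 and 14.3. The exposed samples of 30 weeks were thus far above their controls and below every sample of 15 weeks. The difference at 30 weeks was 5.86-fold, from 2.57 ± 0.354 (SD, n = 3) to 15 ± 0.64 CPM (SD, n = 4), with a log2 fold change of 2.55 (SE 0.126, edgeR adjusted p = 1e-09). At 15 weeks it was 0.01 (95% interval -0.28 to 0.30). ALDH1A3-AS1, antisense to it, had 4 to 31 counts per sample, and the counting strand is not stated.

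ALDH3A1 (chr17:19737984-19748298), which oxidises aromatic and lipid aldehydes, was rare throughout. It had 24 and 32 counts in the 24 h controls and 19 and 32 in exposed cells, and 23 and 8 against 10 and 10 at 15 weeks. At 30 weeks it had 0, 1 and 6 counts in control cells and 4, 13, 4 and 9 in exposed cells, so that the groups overlapped. Its log2 fold change at 30 weeks was 1.54 (95% interval -0.11 to 3.20, edgeR adjusted p = 0.169). Without control replicate 3, the control with 6 counts, it was 3.49 (edgeR adjusted p = 0.0325).

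EPHX1 (chr1:225810124-225845563) encodes the microsomal epoxide hydrolase. It was at 8.56 and 8.22 CPM in the 24 h controls and 8.85 and 7.01 in exposed cells, and at 7.14 and 7.08 against 6.82 and 7.95 at 15 weeks. At 30 weeks the controls had 11.3, 10.2 and 13.2 CPM and the exposed cells 19.6, 8.76, 15.2 and 17.8. Exposed replicate 2 was below all 3 controls and the other 3 exposed samples were above them. The log2 fold change at 30 weeks was 0.41 (95% interval -0.03 to 0.86, edgeR adjusted p = 0.174), and without exposed replicate 2 it was 0.60 (edgeR adjusted p = 0.00292). Its span overlaps that of TMEM63A, which had 428 to 811 counts per sample.

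CYP24A1 (chr20:54143538-54173986), the vitamin D 24-hydroxylase, was seen at 24 h only. It had 45 and 46 counts in the 24 h controls and 45 and 32 in exposed cells, and 0 in every later sample except 1 count in control replicate 3 at 30 weeks. With the floor set at 3 counts per library, its 24 h level was at least 16.7-fold higher than at 15 weeks in control cells and at least 16-fold higher in exposed cells. UGT1A6 (chr2:233691702-233773300), a glucuronosyltransferase, had 0 counts in every library, and each of the other 8 UGT1A genes, which share their last exons with it, had 3 counts or fewer in each. A count of 0 allows up to 3 counts, which stand for 0.0885 to 0.129 CPM in these libraries, counting error only.

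**Figure D2:**
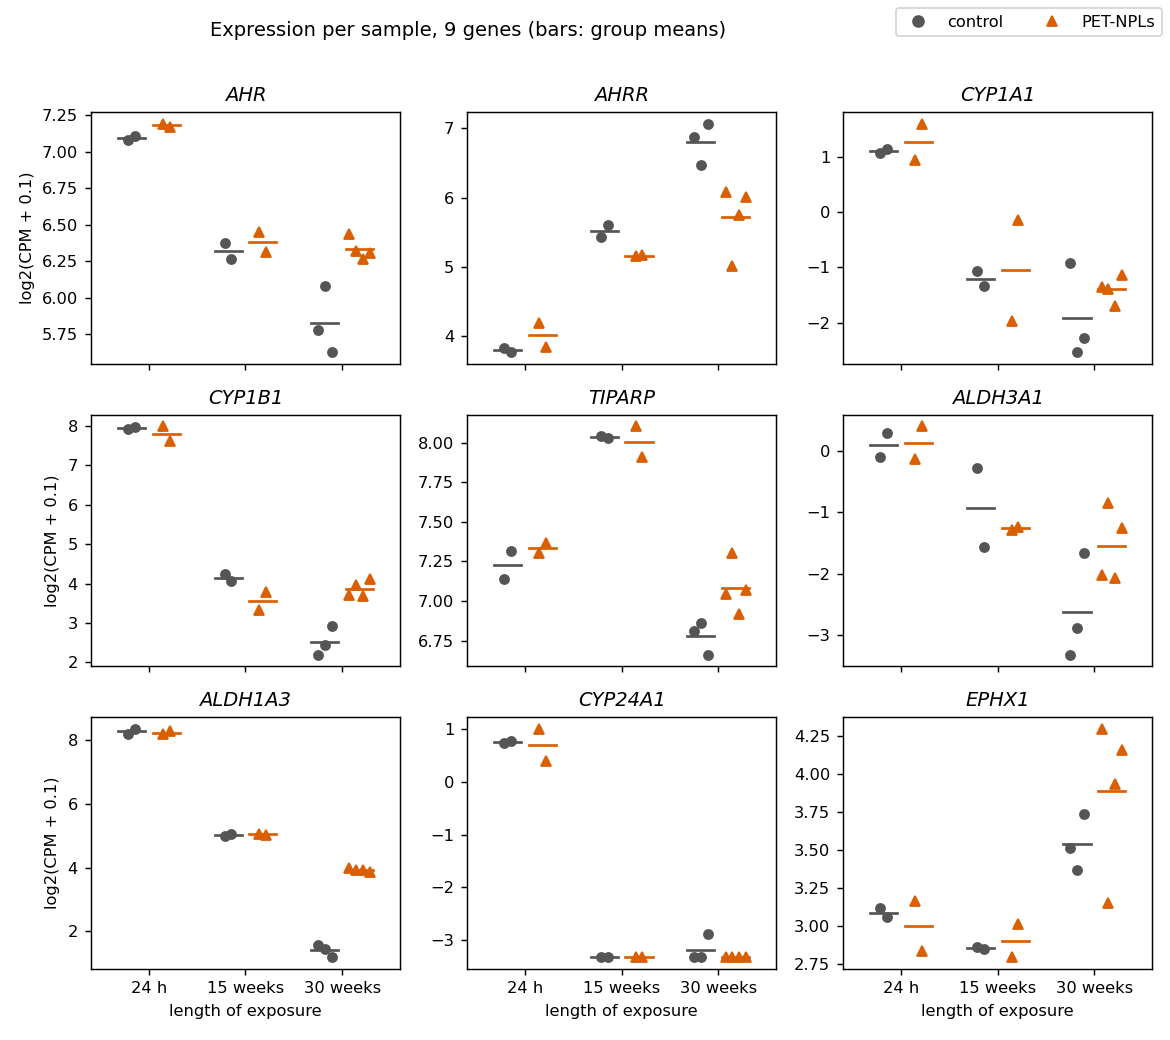
Level of 9 genes in each sample, as log2(CPM + 0.1) on the y axis, against the length of exposure, with circles for control cells, triangles for exposed cells and bars for group means. Control and exposed samples lie close together at 24 h, and at 30 weeks they separate for AHR, AHRR, TIPARP, CYP1B1 and ALDH1A3.

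**Figure D3:**
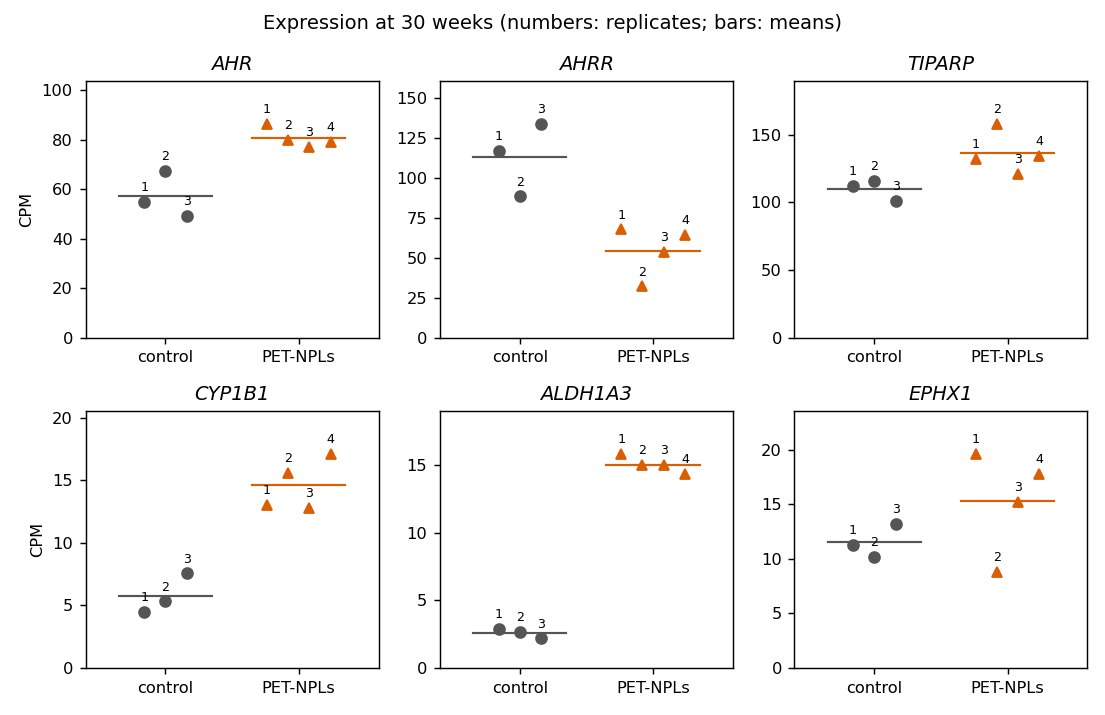
CPM of 6 genes in each sample at 30 weeks, with replicate numbers beside the symbols and bars for group means. Exposed samples lie above the controls for AHR, TIPARP, CYP1B1 and ALDH1A3 and below them for AHRR, and for EPHX1 exposed replicate 2 lies below all controls.

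The effect of exposure, here the log2 fold change of exposed against control cells, changed between 15 and 30 weeks for 2 of the 9 members tested, ALDH1A3 and CYP1B1. It changed for 4.74% of all genes. The log2 fold change of ALDH1A3 was larger by 2.54 at 30 weeks (SE 0.185, edgeR adjusted p = 9.22e-07) and that of CYP1B1 by 1.92 (SE 0.292, edgeR adjusted p = 0.000809). For AHR the difference was 0.43 (95% interval 0.04 to 0.83, edgeR adjusted p = 0.268) and for AHRR -0.69 (-1.40 to 0.02, edgeR adjusted p = 0.345). With limma-voom and surrogate variables the AHRR difference was called (-0.77, adjusted p = 0.000259). Between 24 h and 15 weeks the effect changed for 0 members and 0% of all genes in edgeR, with 0 members at an unadjusted p under 0.05. Exposure time and batch cannot be told apart at 30 weeks, and the doubt about the 30-week controls given above bears on these differences too.

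Most members also differed between time points in culture. From 24 h to 15 weeks, within batch 1, 7 of the 9 members tested were called in control cells, where 24.9% of all genes were, and the same 7 in exposed cells, where 26.0% were. In control cells CYP1B1 fell 14-fold (log2 fold change -3.80, SE 0.243, edgeR adjusted p = 1.8e-08) and ALDH1A3 fell 9.55-fold (-3.26, SE 0.147, edgeR adjusted p = 5.04e-10). CYP1A1 fell 6.04-fold (-2.60, SE 0.603, edgeR adjusted p = 0.00475), and AHR fell 1.71-fold (-0.77, SE 0.149, edgeR adjusted p = 0.00118). CYP24A1 was also called lower. AHRR rose 3.32-fold (1.73, SE 0.277, edgeR adjusted p = 0.000261) and TIPARP rose 1.75-fold (0.81, SE 0.15, edgeR adjusted p = 0.000939). Thus AHR, CYP1A1 and CYP1B1 fell over these weeks while AHRR and TIPARP, also targets of the receptor, rose, in exposed as in control cells. The targets therefore moved in both directions, and a link between these changes was not tested. Some markers of cell type moved over the same weeks. In control cells KRT7 fell 72.9-fold and KRT17 fell 86.3-fold, and PDGFRB rose 5.68-fold and MYOD1 10-fold, and in exposed cells the folds were 235, 461, 3.93 and 4.77 in the same directions. CDH1 and KRT19 also fell in control cells (log2 fold change -3.38 and -2.17). Not called there were, among others, KRT8 (0.18), KRT18 (-0.10), COL1A1 (-0.46), COL1A2 (-0.90), VIM (-0.46), THY1 (0.03), TTN (-0.51) and MYH3 (-0.07). COL1A2 was called lower in exposed cells, by 5.78-fold (edgeR adjusted p = 0.00478). DNAH5 rose 2.72-fold in control and 2.62-fold in exposed cells. The part of these markers in the members' changes was not tested. In exposed cells the folds were 19 for CYP1B1, 9.18 for ALDH1A3, 4.94 for CYP1A1 and 1.73 for AHR, all downwards, and 2.21 for AHRR and 1.6 for TIPARP upwards. The CYP1A1 call in exposed cells was lost without exposed replicate 2 of 24 h (log2 fold change -1.92, edgeR adjusted p = 0.0843) or replicate 1 of 15 weeks (-1.55, edgeR adjusted p = 0.0893), and the value was -3.90 without replicate 2 of 15 weeks. Without control replicate 2 of 15 weeks the CYP1A1 call in control cells was lost as well (-2.42, edgeR adjusted p = 0.0531). The AHRR and TIPARP calls in exposed cells were lost without exposed replicate 2 of 24 h (0.98, edgeR adjusted p = 0.0789) and replicate 1 of 15 weeks (0.58, edgeR adjusted p = 0.0501).

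From 15 to 30 weeks, across the batches, 7 of the 9 members tested were called in control cells, where 50.3% of all genes were, and 4 in exposed cells, where 46.0% were. These comparisons share their samples with those of exposed against control cells, and the markers of the 30-week controls given above bear on them too. ALDH1A3 fell 12.7-fold in control cells (log2 fold change -3.66, SE 0.138, edgeR adjusted p = 2.5e-10) and 2.18-fold in exposed cells (-1.12, SE 0.116, edgeR adjusted p = 4.86e-06). CYP1B1 fell 3.04-fold in control cells (-1.60, SE 0.209, edgeR adjusted p = 1.64e-05), while in exposed cells its value was 0.31 (95% interval -0.11 to 0.73). AHR fell 1.4-fold in control cells (-0.48, SE 0.134, edgeR adjusted p = 0.00692), a call lost without control replicate 1 of 15 weeks (-0.42, edgeR adjusted p = 0.0747) and with limma-voom and surrogate variables (-0.34, adjusted p = 0.0868), and was at -0.05 (-0.32 to 0.22) in exposed cells. TIPARP fell 2.38-fold in control and 1.89-fold in exposed cells. AHRR rose 2.47-fold in control cells (1.30, SE 0.252, edgeR adjusted p = 0.000514). In exposed cells its rise of 1.53-fold was at the edge of the threshold (edgeR adjusted p = 0.045) and missed it in 16 of 22 alternatives. EPHX1 rose 1.62-fold in control cells (edgeR adjusted p = 0.0332) and 2.08-fold in exposed cells (edgeR adjusted p = 0.00274). The control call of EPHX1 was lost without either control of 15 weeks or without control replicate 1 or 3 of 30 weeks (edgeR adjusted p from 0.0614 to 0.131). ALDH3A1 fell in control cells (-2.39, edgeR adjusted p = 0.0213), a call lost without control replicate 1 of 15 weeks (-1.38, edgeR adjusted p = 0.309) or without control replicate 1 or 2 of 30 weeks, while the value was -4.34 without control replicate 3 of 30 weeks. With limma-voom and surrogate variables the control calls of EPHX1 (0.47, adjusted p = 0.104) and ALDH3A1 (-1.64, adjusted p = 0.339) were lost as well.

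Per kilobase of exon (GENCODE v44), the order of the members' levels changed with time. In the 24 h controls ALDH1A3 led at 58 CPM per kb, followed by CYP1B1 at 40.9, TIPARP at 31.2, AHR at 17, EPHX1 at 3.39 and AHRR at 1.46, and no neighbours overlapped. In the 30-week controls TIPARP led at 22.8 CPM per kb, followed by AHRR at 11.9, AHR at 7.09, EPHX1 at 4.67, CYP1B1 at 0.959 and ALDH1A3 at 0.481, again without overlap between neighbours. In cells exposed for 30 weeks the order was TIPARP at 28.4 CPM per kb, AHR at 10, EPHX1 at 6.2, AHRR at 5.75, ALDH1A3 at 2.82 and CYP1B1 at 2.43. Here EPHX1 overlapped AHRR, and ALDH1A3 overlapped CYP1B1. The repressor thus stood above the receptor in the 30-week controls and below it in every other group.

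Over the 15 samples, which share batches and time points, the log2 CPM of AHR went with that of ALDH1A3 (Pearson's r = 0.965) and CYP1B1 (0.941) and against that of AHRR (-0.949). It followed TIPARP (0.246) and EPHX1 (-0.387) less closely. Of 13370 genes with a mean of at least 1 CPM, the 5 most like AHR were KANK4 (0.976), TRAF6 (0.976), PLEK2 (0.975), SAMHD1 (0.97) and DYM (0.969).

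Other genes of the receptor's pathway and of drug metabolism were counted in 12 lists that hold 217 genes, of which 121 were tested. At 30 weeks 22 of the 121 were higher and 13 lower in exposed cells, which is 28.9% called, against 23.7% of all genes, with a median log2 fold change of 0.06 against 0.01. At 24 h and at 15 weeks edgeR called 0 of the 121 (3 and 5 at an unadjusted p under 0.05), and DESeq2 and limma-voom also called 0, while 2 were called with the 15-week samples fitted alone. Among the receptor's partners 2 of 10 were higher and none lower. ARNT2, a relative of ARNT, had 12.7, 14.3 and 19 CPM in control and 38.4, 22.7, 36.8 and 34.8 in exposed cells, all 4 above the controls (log2 fold change 1.11, edgeR adjusted p = 0.000852). NCOA3, a coactivator, was higher as well (0.40, edgeR adjusted p = 0.026). ARNT was at 0.31 (95% interval 0.02 to 0.59, edgeR adjusted p = 0.113). Without exposed replicate 2, ARNT was at 0.41 (edgeR adjusted p = 0.00669). Among 9 other target genes tested, IL1B (1.10, edgeR adjusted p = 0.0218) and CYP2S1 were higher and none was lower, and NQO1, a quinone reductase, was at -0.10 (-0.44 to 0.24). CYP1A2, the third enzyme of its family, had too few counts to be tested.

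**Figure D4:**
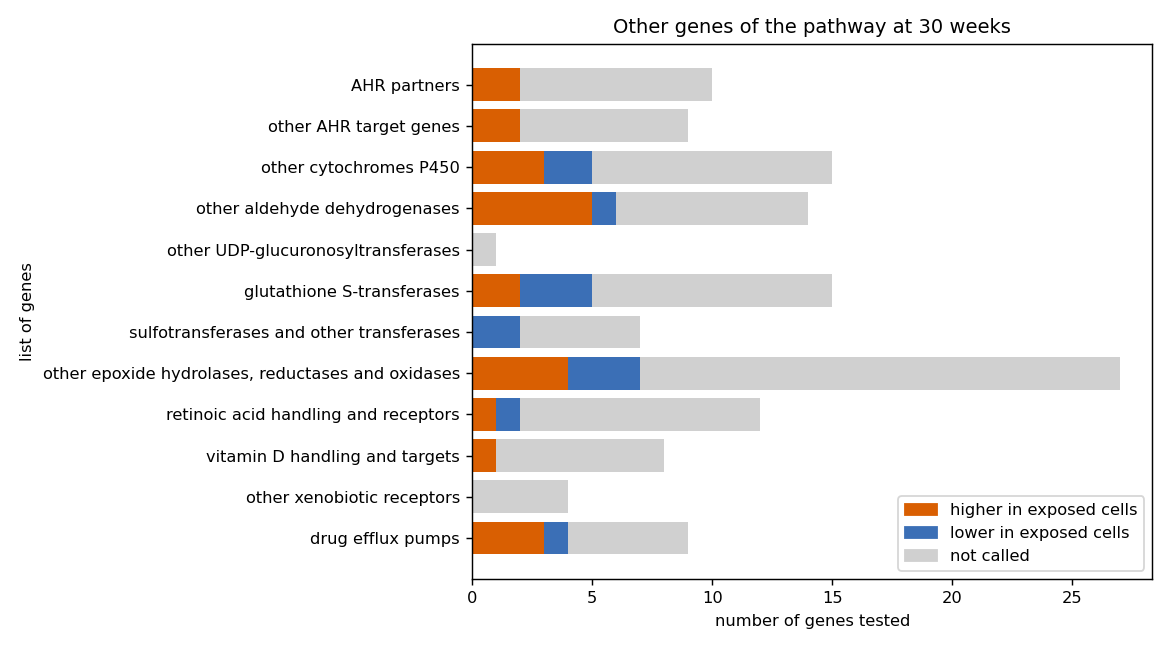
Number of genes tested in each of 12 lists (x axis), split into those higher in exposed cells, those lower and those not called at 30 weeks. The list of epoxide hydrolases, reductases and oxidases is the longest with 27 genes tested. Of 14 aldehyde dehydrogenases 5 were higher, where 12.0% of all genes were.

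Among 14 other aldehyde dehydrogenases tested, 5 were higher and 1 was lower (42.9% called, against 23.7% of all genes). ALDH5A1, which clears succinic semialdehyde, was higher (1.01, edgeR adjusted p = 0.00128), as were ALDH3A2, the fatty aldehyde dehydrogenase (0.72, edgeR adjusted p = 2e-04), and ALDH1L2 (0.74, edgeR adjusted p = 0.0485), the last a call that 17 of 24 alternatives lost. ALDH1B1, a mitochondrial enzyme, had 118, 106 and 114 CPM in control and 63.9, 58, 65.3 and 55.5 in exposed cells. It was lower without overlap (-0.89, edgeR adjusted p = 1.44e-05). Of 15 other cytochromes P450 tested, 3 were higher and 2 lower (33.3% called, against 23.7% of all genes). CYP51A1, the lanosterol demethylase of cholesterol synthesis, had 40, 44.8 and 42.8 CPM in control and 102, 83.4, 86.4 and 99.4 in exposed cells (1.13, edgeR adjusted p = 3.12e-06), and CYP4V2, a fatty acid hydroxylase, was lower (-0.85, edgeR adjusted p = 0.00916).

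In the list of other epoxide hydrolases, reductases and oxidases, 4 of 27 were higher and 3 lower (25.9% called, against 23.7% of all genes). EPHX2, the soluble epoxide hydrolase, had 0.86, 0.866 and 0.322 CPM in control and 3.8, 3.64, 3.82 and 3.87 in exposed cells, a 5.56-fold difference (2.48, edgeR adjusted p = 5.54e-05). AOX1, aldehyde oxidase (1.13, edgeR adjusted p = 0.00038), and CBR3, a carbonyl reductase (1.06, edgeR adjusted p = 0.000343), were higher. MAOA, monoamine oxidase A (-0.76, edgeR adjusted p = 0.00472), CBR4 (-0.61, edgeR adjusted p = 0.0294) and AKR7A3 (-0.61, edgeR adjusted p = 0.0413) were lower, the last in a call that 13 of 24 alternatives lost. POR, the reductase that feeds electrons to the P450 enzymes, was at 0.21 (95% interval -0.02 to 0.44), and was called with limma-voom and surrogate variables (0.35, adjusted p = 0.00864).

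Conjugating enzymes were called in both directions. The share called was 33.3% for the glutathione S-transferases and 28.6% for the sulfotransferases and other transferases, against 23.7% of all genes. Of 15 glutathione S-transferases tested, MGST1 (0.93, edgeR adjusted p = 0.0021) and GSTM1 (0.93, edgeR adjusted p = 0.00129) were higher, and GSTT2 (-1.09), GSTT2B (-0.89) and GSTZ1 (-0.53) were lower. The GSTT2 call was lost without control replicate 2 of 30 weeks (-0.84, edgeR adjusted p = 0.0774). Reads of the near-identical GSTT2 and GSTT2B, and of the GSTM genes, may be split between copies. Of 7 sulfotransferases and other transferases tested, 2 were lower and none higher. NNMT, which methylates nicotinamide, had 623, 531 and 459 CPM in control and 150, 163, 168 and 177 in exposed cells (3.27-fold lower, -1.71, edgeR adjusted p = 2.94e-08). Of 21 other glucuronosyltransferases 1 could be tested, and it was not called.

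Around ALDH1A3, 1 of 12 tested genes of retinoic acid handling was higher and 1 was lower (16.7% called, against 23.7% of all genes). CRABP2, which carries retinoic acid to its nuclear receptors, had 29.2, 22.6 and 23.2 CPM in control and 0.398, 0.771, 0.278 and 0.317 in exposed cells. The samples of 24 h and 15 weeks had between 0.745 and 3.6 CPM, so that the 30-week controls stood above all other samples (56.1-fold lower in exposed cells, -5.81, SE 0.334, edgeR adjusted p = 5.4e-09). RDH11, a retinal reductase, was higher (0.30, edgeR adjusted p = 0.04), a call lost in 18 of 24 alternatives. Around CYP24A1, 1 of 8 tested genes of vitamin D handling was called (12.5%, against 23.7% of all genes). CD14, a monocyte surface receptor induced by vitamin D, was higher (1.72, edgeR adjusted p = 3.01e-05), while the receptor VDR was at -0.42 (95% interval -0.82 to -0.02, edgeR adjusted p = 0.12) and CYP27B1, which activates vitamin D, at 0.59 (-0.06 to 1.25, edgeR adjusted p = 0.18).

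Of the 9 drug efflux pumps, 3 were higher and 1 lower (44.4% called, against 23.7% of all genes). The number of pumps called ran from 2 to 5 over 26 alternatives. ABCC3, a conjugate exporter, had 2.37, 3.43 and 3.36 CPM in control and 9.52, 6.48, 9.14 and 9.54 in exposed cells (2.83-fold higher, edgeR adjusted p = 2.07e-05). ABCC2 was higher (0.90, edgeR adjusted p = 0.0263) and ABCC6 lower (-0.83, edgeR adjusted p = 0.0061). Of the 4 other xenobiotic receptors tested, edgeR called 0 (1 at an unadjusted p under 0.05), and DESeq2 and limma-voom called 0. The called genes of the lists not described above were ALDH2, ALDH18A1, CBR1, ABCB1, CYP2S1 and CYP27C1 (higher) and SULT1A3 and PTGIS (lower), named after their values were seen. Without control replicate 1 of 30 weeks, 9 of the genes described (NCOA3, IL1B, ALDH1L2, CBR4, AKR7A3, GSTZ1, GSTT2B, RDH11 and ABCC2) were no longer called (edgeR adjusted p from 0.0844 to 0.176). Without exposed replicate 1 of 30 weeks 8 of the 9 were lost, all but IL1B (0.0639 to 0.108), and without exposed replicate 4 of 30 weeks 6 were lost (0.0514 to 0.101). With limma-voom and surrogate variables NCOA3, IL1B, ALDH1L2, GSTT2B, GSTZ1, RDH11 and ABCC2 were not called (adjusted p from 0.0577 to 0.408).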

How the data were processed

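RNA was extracted from BEAS-2B cells with TRI Reagent, and libraries were made with a stranded total RNA kit after depletion of ribosomal RNA. Reads were trimmed in Rfastp, aligned to GRCh38 and assigned to genes by Rsubread. The counts that the authors deposited are raw and were analysed as they stand. The counting strand and the handling of reads with several matches are not given in the sources used here, so the counts of overlapping genes and near-identical copies are uncertain. The table names genes by Entrez gene number, 27745 of 28395 numbers carried a symbol, and every sample column was used.

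The software was edgeR 4.0.16 for the main test, DESeq2 1.42.0, limma 3.58.1 and sva 3.50.0 for alternatives, under R 4.3.3. The filterByExpr step kept 16740 genes over the 6 groups, and libraries were scaled by TMM. All 15 samples entered 1 quasi-likelihood fit without further terms beside the group. Benjamini-Hochberg adjustment ran over all of these genes, and an adjusted p under 0.05 made a call. Standard errors were derived from the fold change and its F statistic. The prior count of log2 CPM was 2. Depth ran from 23143202 to 31459990 counts per sample. No fold is given where neither group exceeded 3 counts in any sample. The fit was tested on simulated data, and no outcome of that test is given here.

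The members and the lists of genes were chosen with earlier results of these data known. All 10 members were named, and from each list up to 3 called genes per direction with a mean of at least 1 CPM at 30 weeks. Named whatever their values were ARNT, NQO1, CYP1A2, VDR, CYP27B1, POR and the UGT1A genes. GSTT1 was not analysed here, and some other genes of these pathways are not reported here. Promoter windows came from RefSeq (GRCh38.p14) and exon lengths from GENCODE v44. Alternatives were DESeq2, limma-voom with and without surrogate variables, each time point fitted alone, other filters and scaling, the counts without 6 small noncoding RNAs, stricter thresholds, the replicate number as a block and each sample left out in turn.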

Additional observations from a re-analysis of the deposited data

Results flagged for a closer look

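In the 4 exposed samples of 30 weeks, 40 genes were compared with Dixon's ratio, which flags about 1 in 20 groups by chance, and replicate 2 was far from the remaining exposed samples for 3 of them. It had 35 CPM of AOX1, above the other exposed samples (18.5 to 20.6), 15.3 CPM of CBR4, above them again (8.33 to 8.93), and 6.48 CPM of ABCC3, below them (9.14 to 9.54).

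The effect of exposure differed between 30 and 15 weeks for 11 of the named genes by the interaction term (edgeR), and for 4.74% of all genes. Apart from the members and the genes named whatever their values, the named genes were chosen because they were called at 30 weeks. That choice favours a difference, so their number is not comparable with the share of all genes. The log2 fold change was larger at 30 weeks by 1.92 for CYP1B1 (adjusted p = 0.000809), 2.54 for ALDH1A3 (adjusted p = 9.22e-07), 1.01 for CYP51A1 (adjusted p = 0.00376) and 0.68 for ALDH3A2 (adjusted p = 0.0395). For the hydrolases, reductases and oxidases it was larger by 2.84 for EPHX2 (adjusted p = 0.005), 1.43 for AOX1 (adjusted p = 0.00911) and 1.13 for CBR3 (adjusted p = 0.0273). It was larger by 2.25 for CD14 (adjusted p = 0.000828) and 1.43 for ABCC3 (adjusted p = 0.00642). The difference was -1.74 for NNMT (adjusted p = 4.94e-05) and -4.16 for CRABP2 (adjusted p = 0.000365), whose exposed samples lay below the controls of 30 weeks. NNMT in exposed cells was nevertheless higher at 30 weeks (150 to 177 CPM) than at 15 weeks (32.1 and 34.4 CPM). The CRABP2 difference ran from -5.11 to -3.61 over 22 alternatives and was called in each. The difference was no longer called in 12 of 23 alternatives for ALDH3A2, in 6 of 23 for CBR3, and in 2 of 23 each for AOX1 (without control replicate 1 of 15 weeks, adjusted p = 0.0503, or exposed replicate 2 of 15 weeks, 0.0646) and ABCC3 (without control replicate 2 of 15 weeks, 0.0551, or exposed replicate 1 of 15 weeks, 0.052). Exposure time and batch cannot be told apart in these differences, and the doubt about the 30-week controls bears on them too.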

How the results depend on the processing

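AHR, AHRR, CYP1B1 and ALDH1A3 were called at 30 weeks, in the same direction, in all 24 alternative fits, and the count of members called there ran from 3 to 5 over 26 alternatives, with 3 at a fold of at least 2, which AHR did not reach. The count at 15 weeks was 1 (CYP1B1) with each time point fitted alone. From 15 to 30 weeks, 4 members were called in control cells with surrogate variables (2 by the be method; AHR, EPHX1 and ALDH3A1 were lost), 4 to 7 with 1 sample left out (4 without control replicate 1 of 15 weeks), and 2 in exposed cells at a fold of at least 2. The 35 list genes called at 30 weeks became 21 with each time point alone, 19 at an adjusted p under 0.01 and 17 at a fold of at least 2. They ranged from 21 to 43 with 1 sample left out (21 without control replicate 1 and 22 without exposed replicate 1 of 30 weeks). Of all genes tested at 30 weeks, 23.7% were called, against 15.3% with each time point alone, 14.9% without control replicate 1 and 34.2% without exposed replicate 2. The share at 15 weeks was 0% as reported, 0.108% with DESeq2, 0.114% with surrogate variables, 0.043% without the filter on low counts and 1.96% with each time point alone. For the difference of effects it was 4.74%, 11.9% with surrogate variables and 9.1% without exposed replicate 2 of 30 weeks, and 2.27 to 2.8% with a 15-week sample left out. From 24 h to 15 weeks it fell to 14.3 to 15.5% in control and 14.6 to 16.8% in exposed cells with 1 of the samples compared left out, and was 42.8% in exposed cells with surrogate variables. From 15 to 30 weeks in control cells it was 50.3%, 41.5% with surrogate variables and 36.6% without control replicate 1 of 15 weeks, and in exposed cells it was 29.3 or 29.4% without an exposed sample of 15 weeks. The cause of these changes was not tested, beyond the stricter thresholds.

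At 30 weeks the deviations of same-numbered control and exposed samples correlated at r from -0.118 to 0.303. Differently numbered samples of that time ran from -0.481 to 0.359. At the earlier times each group held 2 samples, whose deviations mirror each other. There the r of differently numbered samples only reverses the sign of same-numbered ones. Whether the numbers pair the samples therefore cannot be decided from these values. With the replicate number as a block, 4 members were called at 30 weeks, 0 at the earlier times, and 25 list genes, against 19.9% of all genes at 30 weeks (23.7% without the block).

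Directions that reversed belonged to log2 fold changes that were called neither in the result as reported nor in the alternative. With 1 sample left out, AHR ran from -0.00345 to 0.129 at 15 weeks and from -0.115 to 0.0171 from 15 to 30 weeks in exposed cells. CYP1A1 ran from -0.166 to 0.507 at 24 h, -1.09 to 1.26 at 15 weeks, -1.51 to 0.845 from 15 to 30 weeks in exposed cells, and -0.724 to 1.63 in the difference of effects between 30 and 15 weeks. CYP1B1 ran from -0.355 to 0.0454 at 24 h and TIPARP from -0.125 to 0.0744 at 15 weeks. ALDH3A1 ran from -0.269 to 0.314 at 24 h and -1.18 to 0.425 at 15 weeks, and ALDH1A3 from -0.131 to 0.0452 and -0.00456 to 0.0391. EPHX1 ran from -0.265 to 0.0777 at 24 h, -0.0555 to 0.164 at 15 weeks, and -0.26 to 0.0832 from 24 h to 15 weeks in exposed cells. CYP24A1 ran from -0.383 to 0.273 at 24 h, and at 30 weeks NQO1 ran from -0.256 to 0.0612. With surrogate variables AHR was 0.0803 and ALDH3A1 0.442 from 15 to 30 weeks in exposed cells, and NQO1 0.0913 at 30 weeks. With upper-quartile scaling ALDH1A3 was -0.00529 at 15 weeks.

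Depth limits CYP1A1, ALDH3A1 and CYP24A1, with at most 77 counts in any library. UGT1A6 had 0 counts in all of them, and the part of depth and of the handling of reads on shared exons in this was not tested.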
